A study of Mus musculus with 6 samples.

Results

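The genes described here are Myc, its partner Max, the Max-binding repressors Mxd1 and Mxi1, and 40 genes whose products make ribosomes in the nucleolus. They were chosen by name, with earlier results of these data known, and all 44 were found among the 55571 entries of the count table. RNA was sequenced from E0771, a mouse mammary carcinoma cell line, in 3 libraries of cells expressing wild-type Malt1 (Malt1-WT) and 3 libraries of cells with a vector control. Both groups were at a basal condition, and no stimulus, dose or time is named in the labels. The promoter driving Malt1 and whether either line is a pool or a clone are not stated in the labels. Separate cultures are not stated either, so the spread behind every p-value may be technical. The comparison asks how expression differs between cells with introduced Malt1 and vector cells.

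MYC is a transcription factor that pairs with MAX and binds the E-box, whose letters are CACGTG, at many promoters. MXD1 and MXI1 pair with MAX instead and bring repressor complexes to the same kind of site. Ribosome production is among the best known programmes driven by MYC: RNA polymerase I copies the ribosomal DNA into a long precursor, small nucleolar ribonucleoproteins (snoRNPs) modify it, and assembly factors fold and cut it into the RNAs of the small and large subunits. Rapidly dividing tumour cells usually keep this programme active.

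Malt1, a paracaspase that acts upstream of NF-kB, was counted 5526, 6176 and 5087 times in the Malt1-WT libraries, against 517, 633 and 611 times in the vector control libraries. Total counts lay between 17601656 and 20543778 per library. Levels are given as CPM, the count of a gene divided by its TMM-scaled library total in units of 1e6, and differences as log2 fold changes of Malt1-WT over vector control from edgeR's quasi-likelihood test, with Benjamini-Hochberg adjustment over all 13594 tested genes. A gene is called changed at an adjusted p under 0.05. A signed value without a unit in brackets, and a value after "fell by", is a log2 fold change. CPM are relative levels, so fewer cells of a type and less RNA per cell cannot be told apart, nor can a change in total RNA per cell be seen. The leukocyte marker Tyrobp was at 0 in every library and Ptprc, which marks all leukocytes, averaged 0.0751 CPM in Malt1-WT and 0.0532 CPM in vector control. The 9 leukocyte markers summed to 16.8 to 19.3 CPM in Malt1-WT libraries, against 8.06 to 10.3 CPM in vector control libraries, with 2 of the 4 tested markers higher (Adgre1 and Cd68) and 1 lower (Lyz2). Of the epithelial markers, Krt8 averaged 59.7 CPM in Malt1-WT and 68.6 CPM in vector control, while Cdh1, Krt18, Krt5 and Krt14 were each under 1 CPM in both groups. The 6 epithelial markers summed to 64.2 to 69.8 CPM in Malt1-WT libraries, against 73.2 to 77.5 CPM in vector control libraries, with 1 of the 2 tested markers lower. Of the fibroblast markers, Pdgfrb was higher (224 CPM in Malt1-WT and 151 CPM in vector control) and Pdgfra and Col1a1 were lower, and the list summed to 357 to 384 CPM in Malt1-WT libraries and 341 to 364 CPM in vector control libraries. The 3 endothelial markers summed to 10.2 to 10.8 CPM in Malt1-WT libraries, against 4.58 to 5.70 CPM in vector control libraries, and of the 2 tested Pecam1 was higher (1.02) and Cdh5, under 1 CPM in both groups, was not called. The part of these marker lists in the results was not tested.

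Myc, Max, Mxd1 and Mxi1, the 4 MYC network genes chosen here, were all higher in Malt1-WT. Most of the ribosome biogenesis genes chosen here were slightly lower. Of the 44 genes, 43 had enough counts to be tested, and 34 of these were called, 7 higher and 27 lower. Calls were common in this comparison: 61.2% of all tested genes were called, 31% higher and 30.2% lower. The share of called genes among the 43 was 79.1%. All 27 lower genes belong to the ribosome biogenesis group, where 39 genes were tested and 69.2% were lower and 7.69% higher. Other genes for subunit assembly, snoRNPs and RNA polymerase I, given below, were called in both directions. Of 39 other small subunit assembly genes 10 were lower and 9 higher, and of 36 other large subunit genes 9 lower and 7 higher. Of 12 other snoRNP genes 2 were lower and 3 higher, and of 9 other RNA polymerase I genes 2 lower and 2 higher. With the libraries scaled by their totals alone, the split over all 43 was 3 higher and 32 lower. Over all tested genes that scaling gave 3528 higher and 5006 lower, against 4210 and 4110 with TMM. The median log2 fold change of the 39 was -0.16, against -0.003 over all tested genes. The sizes were small: of the 30 called ribosome biogenesis genes, 22 differed by less than 1.2-fold and 0 by more than 2-fold. Against a null of 1.2-fold, edgeR's glmTreat called 35.1% of all tested genes (19.3% higher and 15.8% lower) and 7 of the 43, namely Mxd1 and Mxi1 as higher and Polr1b, Ubtf, Dkc1, Nolc1 and Nat10 as lower.

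The promoters of 5 of the genes are shown here because they hold the largest rise and the largest fall by fold among the 43 tested genes, Mxd1 and Nat10, and 3 genes with the E-box of MYC, one called lower and the others higher. Each window runs from 250 bases before to 50 bases after the RefSeq gene start on GRCm38.p6, 5′ to 3′ on the strand of the gene, with CACGTG in capitals. Mxd1 lies at chr6:86669110-86669409 and Nat10 at chr2:103761221-103761520, both on the minus strand. Max lies at chr12:76962199-76962498 on the minus strand, Rrn3 at chr16:13780449-13780748 on the plus strand, and Utp20 at chr10:88826765-88827064 on the minus strand.
Mxd1: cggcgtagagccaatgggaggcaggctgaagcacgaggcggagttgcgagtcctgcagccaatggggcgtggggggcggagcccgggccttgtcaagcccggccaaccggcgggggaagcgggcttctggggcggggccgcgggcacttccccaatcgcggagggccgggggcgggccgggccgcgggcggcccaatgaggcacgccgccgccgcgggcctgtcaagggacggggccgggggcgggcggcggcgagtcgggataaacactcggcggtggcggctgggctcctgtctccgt
Nat10: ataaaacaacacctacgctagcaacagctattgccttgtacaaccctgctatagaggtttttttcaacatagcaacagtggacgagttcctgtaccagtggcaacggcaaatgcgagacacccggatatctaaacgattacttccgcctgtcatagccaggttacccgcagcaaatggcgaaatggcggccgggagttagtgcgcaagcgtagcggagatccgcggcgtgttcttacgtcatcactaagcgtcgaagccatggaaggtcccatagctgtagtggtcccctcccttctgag
Max: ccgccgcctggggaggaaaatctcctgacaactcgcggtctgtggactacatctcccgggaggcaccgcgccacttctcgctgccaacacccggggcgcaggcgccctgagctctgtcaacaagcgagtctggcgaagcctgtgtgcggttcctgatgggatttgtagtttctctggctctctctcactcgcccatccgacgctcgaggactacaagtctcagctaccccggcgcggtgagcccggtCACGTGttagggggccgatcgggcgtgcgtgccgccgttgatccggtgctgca
Rrn3: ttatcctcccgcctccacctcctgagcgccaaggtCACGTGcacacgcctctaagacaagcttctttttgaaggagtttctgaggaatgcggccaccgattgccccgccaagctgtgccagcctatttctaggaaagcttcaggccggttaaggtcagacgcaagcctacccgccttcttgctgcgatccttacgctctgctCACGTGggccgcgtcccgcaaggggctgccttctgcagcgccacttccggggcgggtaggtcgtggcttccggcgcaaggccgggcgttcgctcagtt
Utp20: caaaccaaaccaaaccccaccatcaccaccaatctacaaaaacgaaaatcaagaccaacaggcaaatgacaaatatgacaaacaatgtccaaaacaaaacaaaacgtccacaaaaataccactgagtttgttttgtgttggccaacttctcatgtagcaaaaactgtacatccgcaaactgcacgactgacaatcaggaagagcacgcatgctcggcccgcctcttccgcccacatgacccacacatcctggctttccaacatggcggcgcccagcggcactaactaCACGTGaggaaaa

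A RefSeq promoter was matched for 38 of the 44 genes. CACGTG, which reads the same on both strands, occurred in a window of 9 of the 38 (23.7%), against 2187 of 27025 genes with a promoter in the table (8.09%). The 9 were Max, Mybbp1a, Nop2, Pes1, Rrn3, Tsr1, Utp20, Utp4 and Wdr43. In Max the first base of the match lies 3 bases before the start, in Pes1 it is base 3, and in Rrn3 the matches begin 215 and 48 bases before the start. Genes with a match were found in each class of call: 5 of 23 lower genes with a promoter, 2 of 6 higher genes and 2 of 9 genes not called. The consensus of NF-kB, searched on both strands, was matched in 1 of the 38 (Tsr1), against 5.14% of all genes with a promoter. A match describes the letters in this window and not a bound site.

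Myc (chromosome 15, positions 61985391 to 61990374, plus strand, GRCm38) was among the most abundant of the 44 genes per length of merged annotated exons, second to Npm1 in both groups. It had 614, 594 and 601 CPM in the Malt1-WT libraries, against 547, 535 and 531 CPM in the vector control libraries. The Malt1-WT libraries were all above the vector control libraries, and the log2 fold change was 0.17 (SE 0.027, adjusted p = 7.3e-07), a 1.12-fold difference. Over the 13 alternatives in scaling, filter, test, block and libraries it ranged from 0.09 to 0.17 and stayed called, but it was not called against the 1.2-fold null. Pvt1, a non-coding RNA gene beside Myc, was not called (116 ± 1.64 CPM in Malt1-WT and 115 ± 2.34 CPM in vector control, SD, n = 3 each, adjusted p = 0.76).

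Max, the common partner of MYC and of its antagonists, had 165, 164 and 160 CPM in Malt1-WT libraries, against 150, 144 and 155 CPM in vector control libraries. The groups did not overlap, and the log2 fold change was 0.12 (SE 0.036, adjusted p = 0.0025). The call was lost when libraries were scaled by their totals alone (0.05, adjusted p = 0.26).

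Mxd1 (chromosome 6, positions 86647042 to 86669161, minus strand) showed the largest difference of the 43 tested genes. It was at 70.1, 69.7 and 70.9 CPM in Malt1-WT libraries, against 7.89, 8.20 and 9.55 CPM in vector control libraries. The Malt1-WT libraries lay close together and far above the vector control libraries. The log2 fold change was 3.03 (SE 0.072, adjusted p = 1.6e-37), an 8.2-fold difference. In the authors' deposited table the log2 fold change of Mxd1 is 3.02 with an adjusted p of 0.000127, the only one of the 44 genes under 0.05 there. That table gives a t of 0 to each of the 41 genes whose log2 fold change is under 1 in size. Snrnp27, the next gene upstream, which codes for a spliceosome protein, averaged 42.5 ± 0.825 CPM in Malt1-WT and 35.5 ± 0.798 CPM in vector control (SD, n = 3 each), a log2 fold change of 0.26 (adjusted p = 0.00016). Gmcl1, beyond Snrnp27, was not called (log2 fold change -0.09, adjusted p = 0.27). Asprv1, on the other side of Mxd1, had too few counts to be tested, with 9, 5 and 19 in Malt1-WT libraries and 0, 3 and 1 in vector control libraries.

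Mxi1 (chromosome 19, positions 53310518 to 53375810, plus strand), the second MAX-binding repressor in the group, had 191, 182 and 184 CPM in Malt1-WT libraries, against 88.1, 88.5 and 84.3 CPM in vector control libraries. Every Malt1-WT library was above every vector control library, with a log2 fold change of 1.10 (SE 0.038, adjusted p = 1.4e-30). The authors' deposited table gives Mxi1 a log2 fold change of 1.08, a t of 2.90 and an adjusted p of 0.637. The null of that comparison is not stated. Since its t is 0 for each of the 41 genes under 1 in size, its p-values cannot be set beside those of edgeR's test of no change.

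Levels of different genes were compared per kilobase of exon (RPKM), with the exons of all annotated transcripts of a gene merged. The merged length was 2717 bases for Myc, 7072 for Mxd1 and 6823 for Mxi1. The lengths of the transcripts expressed in these cells were not measured, and the percentages below depend on them. Mxd1 reached 4.39%, 4.51% and 4.53% of the Myc level in Malt1-WT libraries, against 0.554%, 0.589% and 0.691% in vector control libraries. Mxi1 reached 12.4%, 12.2% and 12.2% of the Myc level in Malt1-WT libraries and 6.41%, 6.59% and 6.33% in vector control libraries. The Myc transcript was above both repressor transcripts in all 6 libraries. Max was at 20.4 ± 0.369% of the Myc level in Malt1-WT and 21.0 ± 0.895% in vector control (SD, n = 3 each), and these ranges overlapped. Summed over the 4 genes, the network held 1022 ± 16.2 CPM in Malt1-WT and 782 ± 9.17 CPM in vector control (SD, n = 3 each), and Myc itself made up most of it in both groups.

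**Figure D1:**
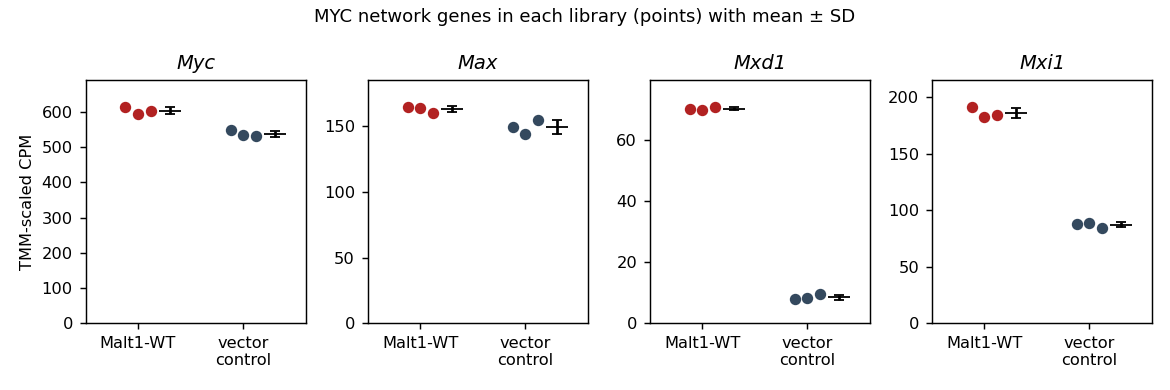
Expression of the 4 MYC network genes in each library, in TMM-scaled CPM on an axis from 0 (points, libraries; bar beside them, mean ± SD of 3 libraries). The Malt1-WT libraries stand above the vector control libraries for all 4 genes; Mxd1 sits near 70.3 CPM in Malt1-WT and 8.55 CPM in vector control, while Myc differs by 1.12-fold.

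The other genes of the MYC, MAX and MLX network moved in both directions: of 8 tested, 4 were higher and 2 lower. Mxd3, another MXD repressor that is expressed in dividing cells, fell to 2.91, 3.74 and 3.80 CPM in Malt1-WT libraries, against 10.7, 10.3 and 10.99 CPM in vector control libraries (log2 fold change -1.61, adjusted p = 1.8e-14). Mxd4 fell as well (-0.23). Mlx, a MAX-like protein (0.76), Zbtb17, which codes for the MYC-binding factor MIZ1 (0.61), Mlxip (0.35) and Mga (0.27) were higher. Mnt, the most widely expressed MAX-binding repressor, was not called, with 67.9 ± 1.67 CPM in Malt1-WT and 66.6 ± 3.70 CPM in vector control (SD, n = 3 each). Mycl was not called either, near 1.07 CPM in Malt1-WT and 0.706 CPM in vector control, and Mycn had 0 counts in all 6 libraries, which allows up to 3 counts per library.

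Of the 6 genes for RNA polymerase I transcription, 4 were lower, 1 was higher and 1 was not called. Ubtf (chromosome 11, positions 102304560 to 102319742, minus strand) codes for UBF, the factor that keeps ribosomal DNA open. It had 249, 245 and 247 CPM in Malt1-WT libraries, against 323, 323 and 331 CPM in vector control libraries. The groups were far apart relative to their spread, and the log2 fold change was -0.40 (SE 0.031, adjusted p = 1.8e-16). Polr1b, the second largest subunit of the polymerase, had 104, 113 and 110 CPM in Malt1-WT libraries, against 142, 138 and 141 CPM in vector control libraries (-0.37, SE 0.039, adjusted p = 7.0e-12). The largest subunit, Polr1a, fell to 360 ± 7.59 CPM in Malt1-WT, against 392 ± 8.43 CPM in vector control (SD, n = 3 each; -0.13). Polr1e, which codes for the subunit PAF53, fell by 0.20. Polr1c, a subunit shared with RNA polymerase III, was not called, with 72.1, 72.5 and 72.3 CPM in Malt1-WT and 65.9, 68.9 and 70.6 CPM in vector control (0.08, 95% interval -0.01 to 0.17). Rrn3, the initiation factor TIF-IA that recruits the polymerase, was at 114, 123 and 118 CPM in Malt1-WT libraries, against 109, 110 and 111 CPM in vector control libraries (0.10, SE 0.039, adjusted p = 0.019). This small rise lost its call without Malt1-WT replicate 2 (0.07, adjusted p = 0.20), without Malt1-WT replicate 3 (adjusted p = 0.058), with vector control replicate 1 left out (adjusted p = 0.069) and under upper quartile scaling, scaling by totals alone and no filter.

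Of the 8 genes for snoRNP proteins, 6 were lower, 1 was higher and 1 was not called. Nolc1 (chromosome 19, positions 46075863 to 46085530, plus strand), the Nopp140 chaperone of snoRNPs, had 238, 237 and 235 CPM in Malt1-WT libraries, against 326, 317 and 320 CPM in vector control libraries (-0.44, SE 0.031, adjusted p = 7.4e-18). Within each group these values varied by far less than the difference between the groups. Dkc1, the pseudouridine synthase of box H/ACA snoRNPs, had 133, 137 and 135 CPM in Malt1-WT libraries, against 177, 183 and 168 CPM in vector control libraries (-0.38, SE 0.036, adjusted p = 4.4e-13). Not all genes for H/ACA proteins passed the test. Gar1 fell by 0.25, to 52.9 ± 4.58 CPM in Malt1-WT, against 62.8 ± 1.42 CPM in vector control (SD, n = 3 each), while Nhp2 overlapped between groups (177, 163 and 183 CPM in Malt1-WT and 171, 172 and 168 CPM in vector control; 0.03, adjusted p = 0.49). Nop10, the fourth H/ACA protein, taken from the list of other snoRNP genes, fell to 42.6 ± 2.04 CPM in Malt1-WT, against 62.5 ± 3.79 CPM in vector control (SD, n = 3 each; -0.56, adjusted p = 1.5e-12). Among the genes for box C/D proteins, which guide ribose methylation, Nop58 fell by 0.25, Nop56 by 0.18 and the methyltransferase gene Fbl by 0.13. Rrp9, specific to the U3 snoRNP, was higher, with 95.1, 88.9 and 89.6 CPM in Malt1-WT libraries, against 77.9, 84.9 and 84.8 CPM in vector control libraries (0.14, SE 0.044, adjusted p = 0.0047). Rrp9 was not called when replicate 1 of Malt1-WT (adjusted p = 0.051) or of vector control (adjusted p = 0.081) was left out, nor with scaling by totals alone (0.07, adjusted p = 0.19).

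**Figure D2:**
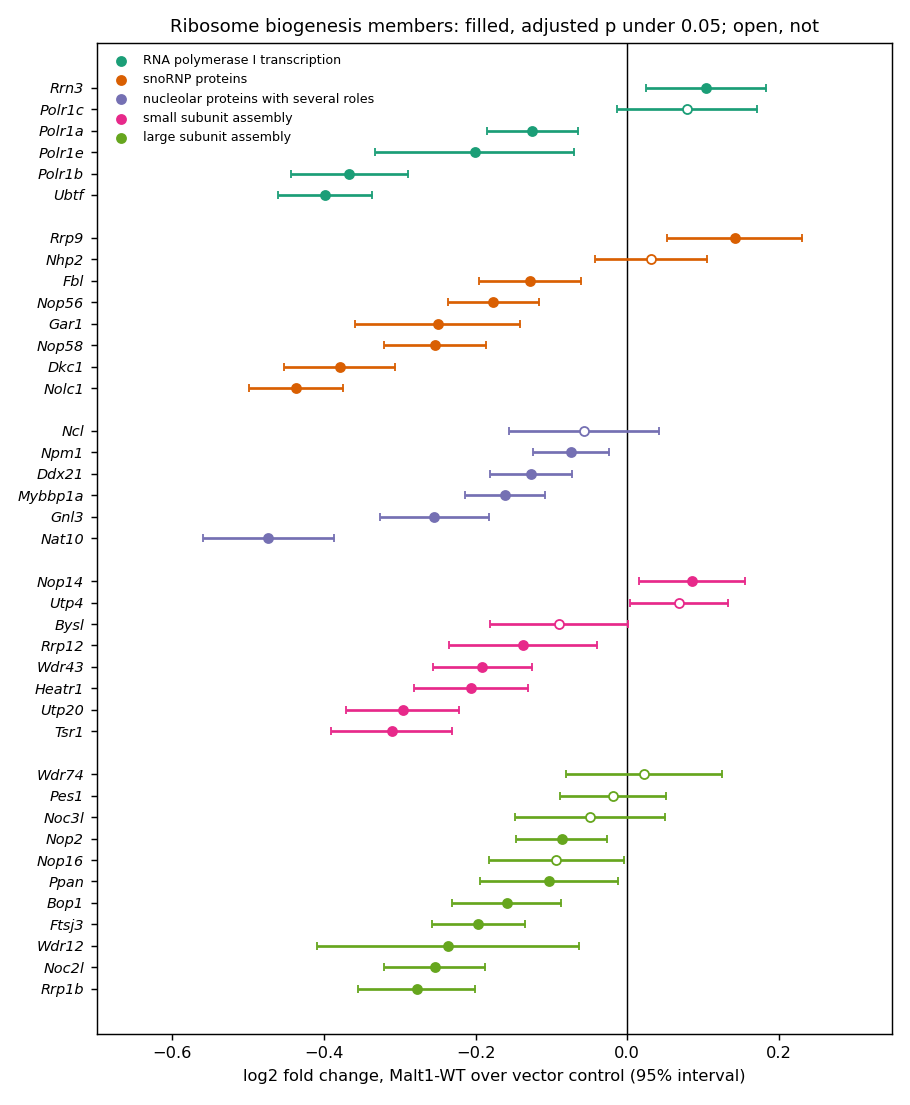
Log2 fold change of Malt1-WT over vector control with its 95% interval for the 39 tested ribosome biogenesis genes, grouped by role and ordered by value (filled points, adjusted p under 0.05; open points, not). The lower genes reach -0.47 (Nat10) and the higher ones 0.14 (Rrp9), and each role holds lower genes.

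Nucleolar proteins with several roles gave 5 lower genes of 6, 0 higher and 1 not called. At an unadjusted p under 0.05 in edgeR, and by the DESeq2 Wald test, 0 of the 6 were higher as well. Nat10 (chromosome 2, positions 103721256 to 103761270, minus strand), the RNA cytidine acetyltransferase that modifies small subunit RNA, had the largest fall of the 39 tested ribosome biogenesis genes, to 68.0, 71.3 and 71.5 CPM in Malt1-WT libraries, against 97.8, 97.3 and 97.6 CPM in vector control libraries. The vector control libraries were nearly equal, and the log2 fold change was -0.47 (SE 0.043, adjusted p = 7.0e-14). Gnl3, which codes for nucleostemin, fell to 146, 138 and 143 CPM in Malt1-WT libraries, against 165, 173 and 170 CPM in vector control libraries (-0.25, SE 0.036, adjusted p = 2.2e-08). Mybbp1a, a nucleolar MYB-binding protein, fell to 733 ± 17.6 CPM in Malt1-WT, against 820 ± 6.58 CPM in vector control (SD, n = 3 each; -0.16). The helicase Ddx21 fell to 584 ± 6.32 CPM in Malt1-WT, against 637 ± 7.95 CPM in vector control (SD, n = 3 each; -0.13).

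Npm1, which codes for nucleophosmin, a chaperone of ribosomal proteins and histones, was the most abundant of the 44 genes, at 1777, 1668 and 1707 CPM in Malt1-WT libraries, against 1780, 1848 and 1796 CPM in vector control libraries. The highest Malt1-WT library nearly reached the lowest vector control library, and the log2 fold change was -0.07 (SE 0.025, adjusted p = 0.0085). Npm1 was not called once vector control replicate 2 was left out (adjusted p = 0.072). The 8 annotated near-identical copies of Npm1 held 1.16% as many counts as Npm1 itself. Ncl, which codes for nucleolin, one of the most abundant nucleolar proteins, had 1134, 1266 and 1113 counts in Malt1-WT libraries, against 1248, 1397 and 1248 counts in vector control libraries. It was not called (-0.06, 95% interval -0.16 to 0.04). The gene C130036L24Rik, examined after this value was seen, lies directly upstream of Ncl on the other strand and held 20057, 21633 and 18434 counts in Malt1-WT libraries, against 21485, 24053 and 22656 counts in vector control libraries (-0.09, adjusted p = 0.0021). Whether reads of Ncl were counted there was not tested, and the strand setting is not known.

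Of the 8 small subunit assembly genes, 5 were lower, 1 was higher and 2 were not called. Tsr1, a GTPase-like factor that acts late in small subunit maturation, had 101, 111 and 101 CPM in Malt1-WT libraries, against 132, 128 and 129 CPM in vector control libraries (-0.31, SE 0.040, adjusted p = 1.9e-09). About 32.3% of its exon bases overlap Srr on the other strand, which was not called and averaged 8.53 CPM in Malt1-WT and 7.44 CPM in vector control. Utp20, a large scaffold of the small subunit processome, had 187, 213 and 207 CPM in Malt1-WT libraries, against 254, 239 and 254 CPM in vector control libraries (-0.30, SE 0.037, adjusted p = 2.0e-09). The Malt1-WT libraries were more spread here than for Tsr1, and still did not reach the vector control libraries. Heatr1, the counterpart of yeast Utp10, fell by 0.21, and Wdr43, the counterpart of yeast Utp5, fell by 0.19. Rrp12, an export and processing factor, fell by 0.14 and lost its call without Malt1-WT replicate 3 (adjusted p = 0.061).

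Utp4, a processome subunit, was not called. It had 222, 221 and 218 CPM in Malt1-WT libraries, against 211, 209 and 210 CPM in vector control libraries. The groups did not overlap, yet the adjusted p was 0.061 (0.07, SE 0.032), and the sign turned when libraries were scaled by their totals alone (-0.01). Nop14 was called higher, with 177, 175 and 172 CPM in Malt1-WT libraries, against 169, 167 and 158 CPM in vector control libraries (0.09, SE 0.035, adjusted p = 0.031). This call was lost under 8 of the 13 alternatives, among them the DESeq2 Wald test (adjusted p = 0.056) and leaving out vector control replicate 3 (adjusted p = 0.26). Leaving out Malt1-WT replicate 1, 2 or 3 gave adjusted p-values of 0.10, 0.092 and 0.055. Bysl, needed for late small subunit steps, was not called (-0.09, adjusted p = 0.080), and 9.37% of its exon bases overlap Ccnd3 on the other strand.

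Of the 12 large subunit assembly genes, 11 were tested: 7 were lower, 0 were higher and 4 were not called. At an unadjusted p under 0.05 in edgeR 0 of the 11 were higher and 8 lower, and the DESeq2 Wald test called 0 higher and 6 lower. Rrp1b, an RRP1-like processing factor, had 121, 124 and 128 CPM in Malt1-WT libraries, against 156, 143 and 153 CPM in vector control libraries (-0.28, SE 0.038, adjusted p = 1.2e-08). Noc2l had 247, 229 and 227 CPM in Malt1-WT libraries, against 286, 278 and 275 CPM in vector control libraries (-0.25, SE 0.033, adjusted p = 3.4e-09). For both, the highest Malt1-WT library stayed below the lowest vector control library. Noc3l, a partner of Noc2l in large subunit particles, overlapped between groups (63.9, 66.2 and 59.4 CPM in Malt1-WT and 64.0, 66.2 and 65.99 CPM in vector control; -0.05, adjusted p = 0.41). Samd11, which overlaps 20.9% of the exon bases of Noc2l on the other strand, had 2 to 13 counts per library.

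Pes1, Bop1 and Wdr12 form the PeBoW complex, which is needed to process the large subunit RNAs, and their transcripts did not all pass the test. Bop1 fell to 140, 136 and 140 CPM in Malt1-WT libraries, against 153, 154 and 158 CPM in vector control libraries (-0.16, SE 0.036, adjusted p = 0.00012). Wdr12 was the least abundant tested ribosome biogenesis gene, with 19.0, 15.7 and 17.8 CPM in Malt1-WT libraries, against 21.4, 19.3 and 21.1 CPM in vector control libraries (-0.24, SE 0.086, adjusted p = 0.015), and lost its call without Malt1-WT replicate 2 (-0.17, adjusted p = 0.13). Pes1 overlapped between groups, with 204, 197 and 217 CPM in Malt1-WT and 207, 213 and 205 CPM in vector control (-0.02, 95% interval -0.09 to 0.05). Its sign was not stable, since it was 0.01 without Malt1-WT replicate 2.

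Ftsj3, a putative rRNA methyltransferase, fell by 0.20, and Nop2, which methylates large subunit RNA, fell by 0.09. Ppan, a Brix-domain factor, fell by 0.10 with an adjusted p of 0.046, and its call was lost without Malt1-WT replicate 1 (adjusted p = 0.096), Malt1-WT replicate 3 (adjusted p = 0.13), vector control replicate 2 (adjusted p = 0.10) or vector control replicate 3 (adjusted p = 0.11), with the DESeq2 Wald test (adjusted p = 0.094) and with the replicate number as a block (adjusted p = 0.062). Nop16 was not called (-0.09, adjusted p = 0.064), although all its Malt1-WT libraries were below its vector control libraries. It was called lower when replicate 1 of Malt1-WT (adjusted p = 0.045) or of vector control (adjusted p = 0.038) was left out. Wdr74 overlapped between groups (0.02, adjusted p = 0.73).

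Rrs1, which brings the 5S particle to the large subunit, was the 1 gene with too few counts to be tested. It had 0, 0 and 1 counts in Malt1-WT libraries, against 7, 6 and 9 counts in vector control libraries. Over the summed counts and library sizes the ratio of Malt1-WT to vector control was 0.0484, with an exact 95% interval of 0.00117 to 0.300 that covers counting error only. Without a filter on low counts its adjusted p was 0.0029. Rrs1 has 3 annotated near-identical copies, which together held 9 counts, 39.1% as many as Rrs1 itself.

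The 40 ribosome biogenesis genes summed to 8470 ± 47.9 CPM in Malt1-WT and 9399 ± 38.2 CPM in vector control (SD, n = 3 each), a difference of -9.88%. The groups did not overlap, with 8418 to 8513 CPM in Malt1-WT libraries and 9368 to 9442 CPM in vector control libraries. By role the difference in the sum was -12.6% for RNA polymerase I genes, -13.4% for snoRNP proteins, -8.01% for nucleolar proteins with several roles, -8.99% for small subunit genes and -9.47% for large subunit genes. For 29 of the 39 genes every Malt1-WT library was below every vector control library, and for 5 every one was above; over all tested genes the groups did not overlap for 64.4%, 32% lower and 32.4% higher. In the median gene the SD over libraries was 3.03% of the mean in Malt1-WT and 1.97% in vector control. The 95% intervals of the 9 genes not called reached from -0.18 to 0.17. Exons of 20 of the 39 genes share bases with another annotated gene on either strand, and 14 of these were lower and 2 higher. Of the 19 that share none, 13 were lower and 1 higher.

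**Figure D3:**
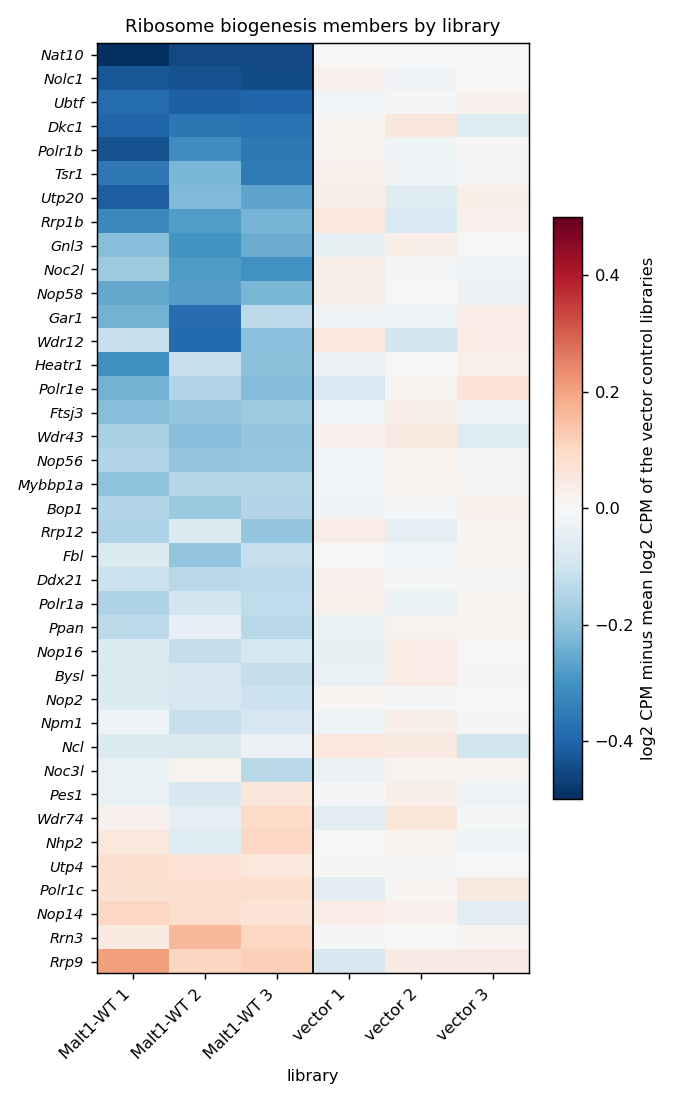
Each tested ribosome biogenesis gene in each library, as log2 CPM minus the mean log2 CPM of the 3 vector control libraries (blue, lower; red, higher), ordered by log2 fold change. The 3 Malt1-WT columns are blue for most genes and differ little from each other in the strongest, from Nat10 to Dkc1.

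Other parts of the ribosome production pathway were read from lists of genes by role, also chosen with earlier results of these data known. The difference between these lists and the 39 genes was not tested. Of 39 other small subunit assembly genes 9 were higher and 10 lower (median -0.02). Of 36 other large subunit assembly genes 7 were higher and 9 lower (median 0.003). With libraries scaled by their totals alone these counts were 3 higher and 18 lower, and 4 higher and 15 lower. That scaling also moved the split over all tested genes, to 3528 higher and 5006 lower. Eif6, which keeps the subunits apart until the large one is mature, was at 313 ± 3.86 CPM in Malt1-WT and 171 ± 5.16 CPM in vector control (SD, n = 3 each; 0.87), and Sdad1 was also higher (0.48). Urb2 (-0.54), Urb1 (-0.34), Nol6 (-0.40), Pwp2 (-0.40) and Nol11 (-0.34) were lower. Of 12 other snoRNP genes 3 were higher and 2 lower, or 2 and 5 with scaling by totals alone. Beside Nop10, Snu13 was lower (-0.17), while the assembly factors Nufip1 (0.42) and Ruvbl2 (0.34) were higher. Of the 9 other RNA polymerase I genes 2 were higher, Ttf1 and Twistnb, and 2 lower, Znrd1 and Cd3eap, all named after their values were seen. With scaling by totals alone 1 was higher and 4 lower.

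Genes for cytoplasmic ribosomal proteins, the building blocks of the ribosome, were called in both directions. Of 76 tested, 17 were higher, 18 lower and 41 not called, within log2 fold changes of -0.26 to 0.32. This split depended on the scaling, with 12 higher and 27 lower under upper quartile scaling and 7 higher and 42 lower with totals alone. Over all tested genes these scalings gave 4042 higher and 4318 lower, and 3528 higher and 5006 lower. Without vector control replicate 1 the split of the ribosomal proteins was 11 higher and 29 lower, and without vector control replicate 2 it was 20 higher and 11 lower. Their sum was 48209 ± 1224 CPM in Malt1-WT and 48590 ± 1451 CPM in vector control (SD, n = 3 each). The RNA polymerase III genes, which serve 5S RNA and tRNA, gave 10 lower and 4 higher of 21 (3 higher and 14 lower with totals alone). Gtf3a, the factor TFIIIA of the 5S genes, fell to 4.19, 4.74 and 4.09 CPM in Malt1-WT libraries, against 8.56, 9.67 and 8.90 CPM in vector control libraries (-1.05, adjusted p = 3.3e-09). Gtf3c5 (-0.45), Polr3k (-0.41) and Polr3gl (-0.36) were lower too. The RNA exosome, which trims precursor RNA, gave 7 lower genes of 13, led by Dis3 (-0.67) and Exosc8 (-0.50), and 1 higher. That one was Mphosph6, an exosome cofactor in 5.8S RNA maturation, at 130 ± 3.59 CPM in Malt1-WT and 55.0 ± 2.22 CPM in vector control (SD, n = 3 each; 1.24). Of the 6 tested host genes of snoRNAs 2 were higher, Snhg12 and Snhg1, and 1 lower, Snhg5, named after their values were seen; with totals alone 0 were higher and 1 lower.

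**Figure D4:**
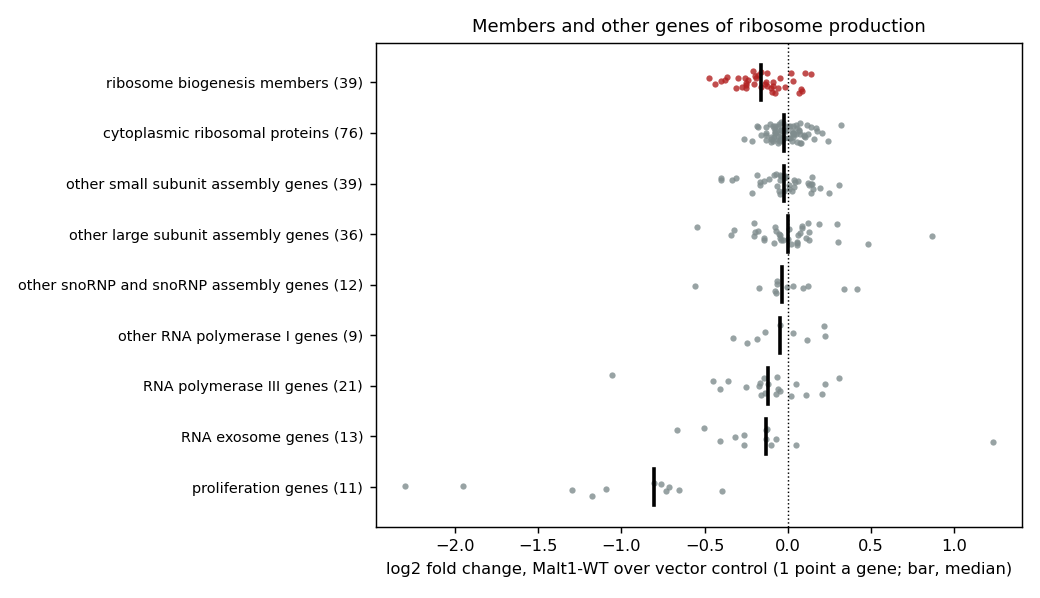
Log2 fold change of Malt1-WT over vector control for each tested gene (1 point) of the ribosome biogenesis members and of 8 other lists, with the median as a bar and the number of tested genes in brackets. The members have a median of -0.16, the ribosomal proteins lie around -0.02, and all 11 proliferation genes lie below 0.

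Most called genes among the known MYC-activated genes outside ribosome production were lower, and the called MYC-repressed genes were higher. Of 23 genes listed as activated by MYC, 13 were lower and 3 higher, the last being Odc1, Ccnd2 and Shmt2, named after their values were seen. The median log2 fold change of the 23 was -0.096. Their sum went the other way, with 11926 ± 71.2 CPM in Malt1-WT and 11131 ± 199 CPM in vector control (SD, n = 3 each), and the groups did not overlap. Odc1 codes for the rate-limiting enzyme of polyamine synthesis. It rose to 2254, 2202 and 2227 CPM in Malt1-WT libraries, against 1149, 1195 and 1169 CPM in vector control libraries (0.93). This rise was larger than that of the sum, so the other listed genes together were lower in Malt1-WT. Tfap4 (-0.62), Apex1 (-0.56) and Impdh2 (-0.51), the last for guanine nucleotide synthesis, were lower. Of the 4 tested genes listed as repressed by MYC, 3 were higher: Cdkn1a, the cell cycle inhibitor p21, at 1151 ± 11.7 CPM in Malt1-WT and 108 ± 5.18 CPM in vector control (SD, n = 3 each; 3.42), Ndrg1 (1.75) and Gadd45a (0.26). Among 10 genes for MYC protein turnover and cofactors, 5 were lower and 2 higher. Cip2a, whose product shields MYC protein from dephosphorylation, fell to 69.8 ± 1.68 CPM in Malt1-WT, against 160 ± 2.89 CPM in vector control (SD, n = 3 each; adjusted p = 2.3e-31). The ubiquitin ligase subunit Skp2 (-0.65) and the acetyltransferase complex genes Kat2a (-0.44) and Trrap (-0.36) were lower, while the deubiquitinase Usp28 was higher (0.28).

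Proliferation genes were lower too: 11 of 11 were called lower in edgeR's test, with a median log2 fold change of -0.80. They summed to 1726 ± 11.4 CPM in Malt1-WT and 3673 ± 4.39 CPM in vector control (SD, n = 3 each). Mki67, a marker of cycling cells, fell to 61.9, 61.6 and 58.7 CPM in Malt1-WT libraries, against 323, 291 and 285 CPM in vector control libraries (-2.30), and Ccnb1 (-1.95), Top2a (-1.30) and Cdk1 (-1.18) were lower as well. The part of this difference in the values of the ribosome biogenesis genes was not tested.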

How the data were processed

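RNA of 3 Malt1-WT and 3 vector control libraries of E0771 cells was sequenced; groups and replicate numbers come from the sample titles. Per the labels' protocols, total RNA (RNAiso Plus) went into NEBNext Ultra II Directional libraries. The submitters' processing notes name the build GRCm38.p6 (mm10), featureCounts 1.6.3, STAR 2.7.3a and Trim Galore 0.6.0. Neither the annotation nor the strand setting used for counting is stated in the labels, so reads of genes that overlap on opposite strands, or of near-identical copies, may be misassigned. The authors deposited 1 table of raw counts per gene, per the file headers, with no normalisation; 28089 of its 55571 entries had no count. The same deposited table holds the authors' own comparison: a log2 fold change and mean log2 expression per gene, a score (the t statistic), and a p-value with its adjusted p-value, per the file headers; its tool is not stated.

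Counts were analysed in edgeR 4.0.16 (R 4.3.3). filterByExpr (minimum count 10) set the tested genes, libraries were scaled by TMM (factors of 0.973 to 0.976 in Malt1-WT and 1.02 to 1.03 in vector control), and the quasi-likelihood test was run with the robust option and no covariates. Adjusted p-values are Benjamini-Hochberg values over all tested genes. The common coefficient of variation between libraries was 0.0335, and within a group the libraries differed beyond sampling noise (chi-square per degree of freedom 2.18 to 3.01), so all 6 were kept apart.

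Positions, exon lengths and overlaps come from GENCODE M21 (GRCm38), near-identical copies (at least 90% identity over 300 bases) from BLAST 2.17.0 on its transcripts, and promoters from RefSeq. The genes and the lists by role were chosen with earlier results of these data known. All members may be named; from other lists the text names Malt1, markers, and up to 4 called genes with the largest change, and all others, the neighbouring and overlapping genes among them, were chosen after values were seen. The result of 1 gene that this rule would name is not reported here. Alternatives were other scalings, filters and tests, a 1.2-fold null, the replicate block and leaving out each library, with DESeq2 1.42.0 as the other test.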

Additional observations from a re-analysis of the deposited data

How the results depend on the processing

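Each of the 43 tested genes was refitted under 13 alternatives, which gave 559 comparisons with the reported fit: 516 kept the direction and the side of the threshold, 27 lost the call, 9 gained one and 7 changed sign. Of the 27 genes called lower, 23 kept their call throughout, as did 3 of the 7 called higher (Myc, Mxd1 and Mxi1). The sign changes were all in genes not called: Nhp2 was -0.045 with library size only and -0.012 to 0.071 with each library left out in turn (negative without Malt1-WT replicate 3), Utp4 was -0.0077 with library size only, Pes1 was -0.063 to 0.0054 with each library left out (positive without Malt1-WT replicate 2), and Wdr74 was -0.054 with library size only and -0.0204 to 0.051 with each library left out (negative without Malt1-WT replicate 3 and without vector control replicate 1); the cause was not tested. Against a 1.2-fold null (glmTreat) the genes changed numbered 4767, against 8320, the members higher 2, against 7, and the members lower 5, against 27, as this test asks for a larger change. With library size only, 3 members were higher and 32 lower, and over all tested genes 3528 were higher and 5006 lower. This setting leaves out the TMM factors, which were 0.973 to 0.976 in Malt1-WT and 1.02 to 1.03 in vector control. Why these factors differ between the groups was not tested. Leaving out each library in turn gave 7878 to 8074 genes changed, 5 to 7 members higher and 25 to 28 members lower. In the other lists 19 of 338 counts moved by more than 1.5 times: 10 with library size only and 9 others, which were the ribosomal proteins (11 higher and 29 lower without vector control replicate 1, 20 higher and 11 lower without vector control replicate 2, 11 higher with no filter), the other RNA polymerase I genes (1 higher without vector control replicate 3) and the snoRNA host genes (1 higher without Malt1-WT replicate 3 or vector control replicate 3, 0 lower without Malt1-WT replicate 2 or vector control replicate 2). Scaling by library size only moved the median of all genes to -0.08, and that of the members to -0.20. No pairing by replicate number was visible. The deviations of same-numbered libraries correlated at -0.026, -0.021 and 0.017, and those of other pairs at -0.021 to 0.040. Whether libraries were prepared in pairs is not stated in the labels, and these values cannot decide it. With the replicate block 8168 genes changed, 7 members were higher and 26 lower, and Ppan lost its call. Rrs1, at 0 to 9 counts per library, was too shallow for the test with the filter.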
